A study of Mus musculus with 3 samples.

Results

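The MS4A family (membrane-spanning 4-domains, subfamily A) was followed through the immune cells of the mouse kidney. Its proteins cross the plasma membrane several times and, where they have been studied, sit beside immune receptors and tune their signalling. The best known is CD20, the product of Ms4a1, which is found on B cells and is the target of antibodies used against B cell disease. Other members are known from T cells, from monocytes and macrophages, or from cells that respond to interferon. The members were the 8 genes Ms4a1, Ms4a4a, Ms4a4b, Ms4a4c, Ms4a6b, Ms4a6c, Ms4a6d and Ms4a7, taken by name from the 32886 gene columns of a table of UMI counts, in which 19 gene symbols start with Ms4a.

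The cells were CD45+ immune cells sorted from kidneys of untreated wild-type male C57BL/6J mice aged 10 weeks. The kidneys had been dissected into 3 compartments, which were cortex, OM (outer medulla) and IM (inner medulla), and the cells were profiled with 10x Genomics droplets at 3 facilities (Aachen, Bonn and Hamburg). The table held 20266 cells in the 23 clusters named by the authors, each with its compartment and its facility. The cells of 1 compartment at 1 facility were treated as 1 library, which gave 9 libraries with the facility as the replicate. The labels name 3 samples, 1 per compartment, and the facility comes from the table. How many mice stood behind a library, and whether kidneys were pooled, was not given in the sources used here, so the p-values below measure the spread between these libraries only. The compartments were dissected by hand, and each is a piece of tissue.

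The libraries held between 2122809 and 15267126 UMIs, and the median cell held 887 UMIs in Aachen, 3290.5 in Bonn and 2943.92 in Hamburg. The cluster names were checked against marker lists. In the B cells of every library all 8 listed B cell markers (Ms4a1 was left out of the list) were detected, and together they reached 8142 to 13656 CPM (UMIs per 1000000 UMIs of the same cells). For the other classes used below, at least 11 of 12 macrophage, 6 of 7 monocyte, 5 of 6 cDC2, 5 of 8 T cell and 6 of 6 NK cell markers were detected in each library of the class. Resident macrophages also detected at least 5 of 6 cDC2 and 5 of 8 T cell markers, so detection alone does not separate these classes. By level, each list in its own class reached 19663.5 to 29154.5, 4251 to 5998, 1878 to 3979, 2574 to 5061 and 5018 to 14362 CPM in that order. In the other classes used below the lists stayed at or under 5593, 2256, 1240, 735 and 445 CPM. In Hamburg only 0.118% of nonzero values were whole numbers, against 100% in Aachen and Bonn. Libraries shared few cell barcodes, between 0 and 16 in each of 36 pairs. In Aachen, 951 genes were listed at 0 although they reached at least 2 CPM at both other facilities, against 1 such gene in Bonn and 18 in Hamburg. Rack1, which encodes a ribosome-associated protein that every cell uses, was among them, with 0 CPM in Aachen, 1148 in Bonn and 1061 in Hamburg. Ms4a4a was another, at 0 UMIs in Aachen against 577 in Bonn and 526 in Hamburg, so its levels are given for Bonn and Hamburg alone. The cause of these zeros was not tested.

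All 8 genes lie within 355 kb of chromosome 19, from 11249679 to 11604804. The positions are those of the RefSeq annotation of the GRCm38 assembly, the genome that mm10 denotes. From the lower end the order was Ms4a1 (chr19:11249679-11266149), Ms4a7 (chr19:11321039-11336146), Ms4a4a (chr19:11375488-11392915), Ms4a4c (chr19:11404717-11427246), Ms4a4b (chr19:11443558-11463549), Ms4a6c (chr19:11469353-11487182), Ms4a6b (chr19:11518559-11530403) and Ms4a6d (chr19:11586606-11604804). Ms4a1, Ms4a7 and Ms4a6d lie on the minus strand and the other 5 on the plus strand. Ms4a14, Gm8369, Ms4a4d and Ms4a5 are the 4 other protein-coding genes between them. Most neighbours among the 8 members differed in the class with their highest level, but not all. Ms4a1 and Ms4a7 lie 71.4 kb apart at their lower ends, with Ms4a14 between them. The former had its highest level in B cells and the latter in macrophages. Ms4a4c and Ms4a4b lie side by side, the former highest in monocytes and the latter in T cells. Ms4a4a and Ms4a4c, also side by side, were both highest in monocytes.

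**Figure D1:**
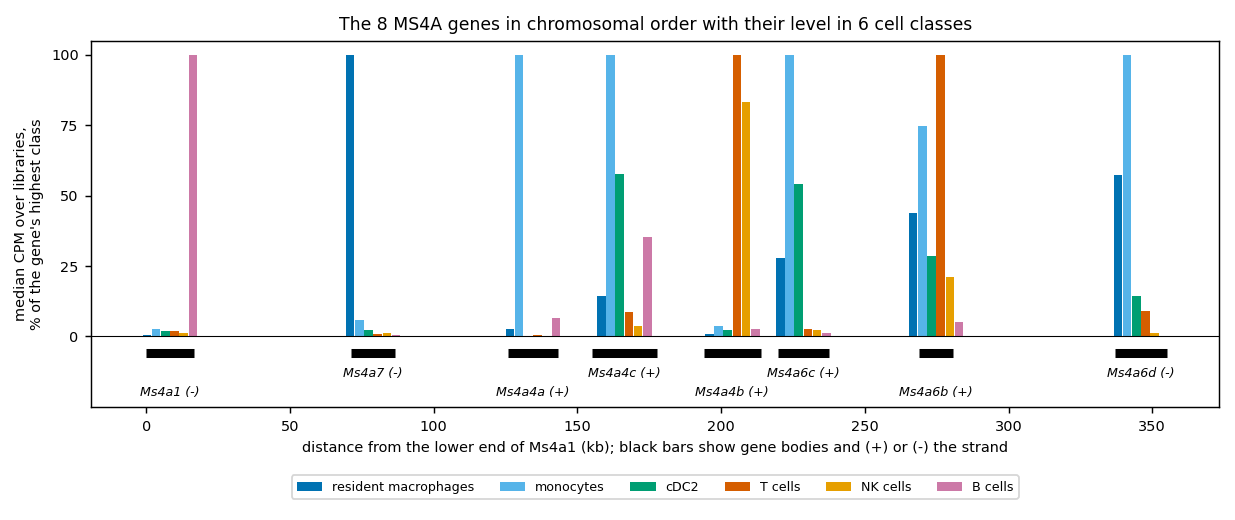
The 8 genes drawn to scale along chromosome 19 (x axis, distance in kb from the lower end of Ms4a1, black bars for gene bodies) with bars for the median CPM over libraries in 6 cell classes, as a percentage of the gene's own highest class (y axis). Ms4a1 peaks in B cells, Ms4a7 in resident macrophages, Ms4a4a, Ms4a4c, Ms4a6c and Ms4a6d in monocytes, and Ms4a4b and Ms4a6b in T cells.

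Some members are close copies of each other. Among protein-coding transcripts, the longest run of identical bases was 127 bases for Ms4a4b and Ms4a4c, 96 for Ms4a6b and Ms4a6c, and 81 for Ms4a6b and Ms4a6d. Within the last 500 bases of the transcripts the runs were 11, 60 and 13 bases. The counting could have split or dropped reads from such runs, so the levels of Ms4a4b against Ms4a4c, and of Ms4a6b, Ms4a6c and Ms4a6d against each other, carry that uncertainty. No exon of a member overlapped an exon of another gene on the same strand.

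The 300 bases around a start listed for a gene (250 before and 50 after) were taken from RefSeq on GRCm38.p6 for 6 of the 8 members and for the neighbour Gm8369. The windows of Ms4a4c and Gm8369 lie wholly inside these genes, above their lower ends at 11404717 and 11488955. Their starts are therefore internal ones. Ms4a1 and Ms4a6d had no entry, and Ms4a7 had 2. Only sequences of the same copy group aligned over more than 26 bases. Ms4a4b and Ms4a4c were identical at 89.8% of 177 aligned bases, Ms4a4c and Gm8369 at 90.2% of 174, Ms4a4b and Gm8369 at 86.1% of 209, and Ms4a6b and Ms4a6c at 89.4% of 216. The 5 sequences are shown 5′ to 3′ because genes with similar windows were highest in different cells. Capitals mark the bases that, in local alignment, are identical in every other sequence of the group. The first group is Ms4a4b (chr19:11443308-11443607), Ms4a4c (chr19:11407411-11407710) and Gm8369 (chr19:11491788-11492087), the second is Ms4a6b (chr19:11518309-11518608) and Ms4a6c (chr19:11469118-11469417), and all lie on the plus strand.
Ms4a4b: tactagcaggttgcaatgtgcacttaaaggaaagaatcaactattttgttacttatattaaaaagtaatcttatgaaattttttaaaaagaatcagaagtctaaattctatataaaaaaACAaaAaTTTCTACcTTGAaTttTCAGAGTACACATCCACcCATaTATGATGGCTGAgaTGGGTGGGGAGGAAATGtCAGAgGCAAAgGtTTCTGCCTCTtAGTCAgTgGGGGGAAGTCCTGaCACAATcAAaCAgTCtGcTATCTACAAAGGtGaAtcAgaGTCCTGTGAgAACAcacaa
Ms4a4c: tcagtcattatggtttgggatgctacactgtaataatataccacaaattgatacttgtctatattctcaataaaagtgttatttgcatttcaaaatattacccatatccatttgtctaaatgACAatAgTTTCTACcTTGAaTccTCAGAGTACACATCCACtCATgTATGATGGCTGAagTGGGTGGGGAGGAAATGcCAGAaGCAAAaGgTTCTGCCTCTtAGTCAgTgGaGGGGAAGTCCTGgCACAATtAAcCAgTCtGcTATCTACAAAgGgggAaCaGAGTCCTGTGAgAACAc
Gm8369: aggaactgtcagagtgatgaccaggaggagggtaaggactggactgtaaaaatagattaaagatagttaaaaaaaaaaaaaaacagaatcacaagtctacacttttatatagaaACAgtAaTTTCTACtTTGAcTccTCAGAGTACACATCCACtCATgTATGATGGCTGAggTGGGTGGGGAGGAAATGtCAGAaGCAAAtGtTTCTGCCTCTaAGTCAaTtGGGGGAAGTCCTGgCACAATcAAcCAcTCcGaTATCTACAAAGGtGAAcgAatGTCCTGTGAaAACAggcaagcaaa
Ms4a6b: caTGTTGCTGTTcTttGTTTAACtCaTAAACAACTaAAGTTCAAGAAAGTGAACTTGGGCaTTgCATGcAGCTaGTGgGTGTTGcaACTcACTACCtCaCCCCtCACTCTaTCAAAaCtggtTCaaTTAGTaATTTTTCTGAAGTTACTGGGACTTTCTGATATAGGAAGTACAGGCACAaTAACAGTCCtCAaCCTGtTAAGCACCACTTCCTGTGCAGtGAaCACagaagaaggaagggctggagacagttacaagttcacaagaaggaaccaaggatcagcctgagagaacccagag
Ms4a6c: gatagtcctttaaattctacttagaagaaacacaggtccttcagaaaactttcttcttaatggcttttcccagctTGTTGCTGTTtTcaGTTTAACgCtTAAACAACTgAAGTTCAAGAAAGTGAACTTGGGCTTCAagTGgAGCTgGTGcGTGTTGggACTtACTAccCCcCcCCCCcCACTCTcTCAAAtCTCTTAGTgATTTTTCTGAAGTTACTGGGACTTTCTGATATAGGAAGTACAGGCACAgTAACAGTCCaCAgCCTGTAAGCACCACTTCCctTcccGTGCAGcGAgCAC

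The 6 short motifs named here were searched on both strands. The ETS core GGAAGT occurred in 23.8% of 32851 promoters of the same length, and in all 5 sequences printed above. It starts 19, 15 and 24 bases before the start used for the window in Ms4a4b, Ms4a4c and Gm8369. In Ms4a6b and Ms4a6c it occurs once on each strand. It also occurs on the reverse strand at the first start of Ms4a7. The octamer ATGCAAAT, which 1.74% of promoters hold, was present on the reverse strand of Ms4a4c alone among these sequences, starting at position -170. TGANTCA (AP-1, 7.81% of promoters) occurred in Ms4a4b and at the second start of Ms4a7, and TATAAA (13.6%) in Ms4a4b and Gm8369. The interferon-stimulated response element, searched as GAAA, any 2 bases and GAAA (3.44%), and the gamma-activated site TTCNNNGAA (8.30%) matched in none of the windows. No match overlapped another. A match describes letters in a window and not a bound site, and the lack of a match says only that those letters are not in that window.

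For every cluster and facility, the UMIs of a gene were summed and divided by all UMIs of those cells to give CPM. The clusters were made from these same cells and genes, so their levels are given as a description with no test. The highest cluster was one of B cells for Ms4a1, of T cells for Ms4a4b and Ms4a6b, of monocytes for Ms4a4a, Ms4a4c and Ms4a6c, and of macrophages for Ms4a6d and Ms4a7. Below these, NK cells and type 2 conventional dendritic cells (cDC2) also held members at high levels.

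**Figure D2:**
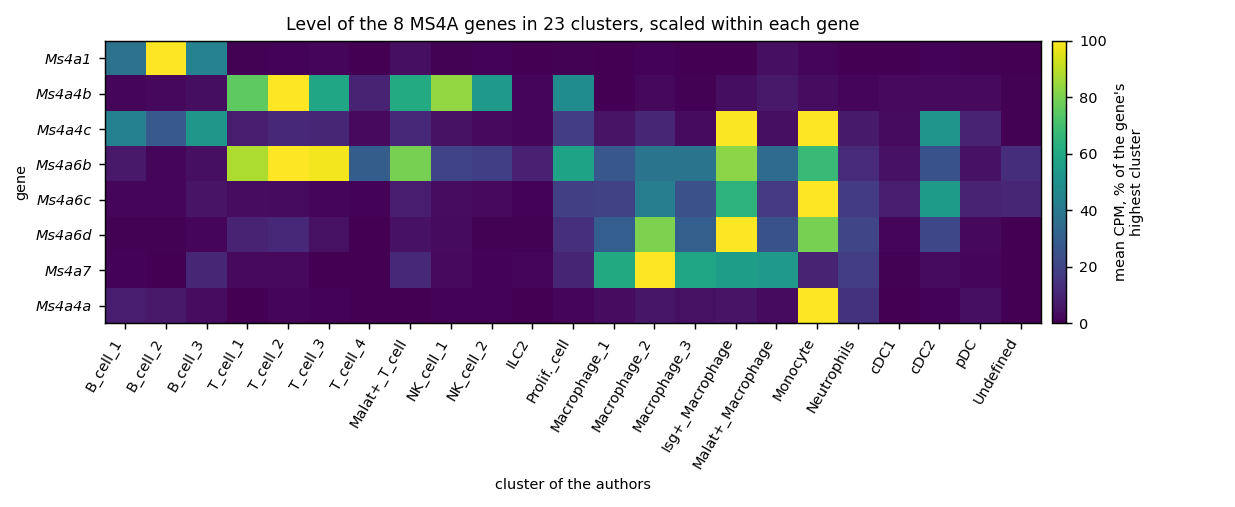
Mean CPM over facilities of the 8 genes (rows) in the 23 clusters (columns), each as a percentage of the gene's own highest cluster (colour scale, 0 to 100). Ms4a1 and Ms4a4a each have 1 cluster at 50% or more of the top level, whereas Ms4a6b has 7.

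Ms4a1, which encodes CD20, was a B cell gene in all 9 libraries. It was highest in the cluster B_cell_2, at 2108 CPM in Aachen, 2302 in Bonn and 1512 in Hamburg (1974 ± 412, mean ± SD, n = 3 facilities). B_cell_1, by far the largest B cell cluster, had 618, 1010 and 583 CPM, and B_cell_3 had 756 in Bonn and 988 in Hamburg, with under 10 cells in Aachen, where no level is given. B_cell_2 thus stood 3.41-, 2.28- and 2.59-fold over B_cell_1, and its range did not overlap that of either other B cell cluster, while B_cell_3 and B_cell_1 overlapped. The list of 8 further B cell markers was higher in B_cell_2 as well, at 16197 CPM against 9805 in B_cell_1 and 8223 in B_cell_3. Every other cluster stayed at or below 4.25% of the B_cell_2 level. Plasma cell markers ranged widely in B_cell_2, from 642 to 10728 CPM over facilities. The genes whose pattern over clusters was most like that of Ms4a1 included Fcmr, an Fc receptor for IgM (Pearson's r = 0.98 of log2(CPM + 10)), Pax5, the transcription factor of B cell identity (0.96), Ighv1-82 (0.96) and Cd22, an inhibitory receptor of B cells (0.96).

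After each cell was thinned to 500 UMIs, 33.1 ± 7.49% of B cells held a UMI of Ms4a1 (67.2% before thinning) against 0.354 ± 0.464% of resident macrophages, which should lack it. The median B cell held 733, 2765 and 2511 UMIs in Aachen, Bonn and Hamburg, and the median macrophage 889, 4499 and 3363. In B cells there were 8.68, 8.56 and 7.45 UMIs of Ms4a1 for 100 UMIs of the 8 markers, and in T cells 7.29, 7.29 and 6.86. The few UMIs of Ms4a1 in T cells therefore came in nearly the ratio found in B cells. In resident macrophages the ratio was lower at each facility, at 1.42, 6.18 and 3.11, and in cDC2 it ranged from 4.55 to 16.7.

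Ms4a4b, whose product is known to associate with the costimulatory receptor GITR on T cells, was a gene of both T and NK cells, with T cells highest in 6 of 9 libraries and NK cells in the others. It was highest in T_cell_2, at 1025, 1894 and 1004 CPM in Aachen, Bonn and Hamburg, followed by NK_cell_1 at 862, 1523 and 905 and T_cell_1 at 917, 1296 and 743. Bonn was the highest facility in each of these clusters. T_cell_3 and NK_cell_2 came next, at 770 ± 316 and 707 ± 252 CPM (n = 3). Among the first 7 clusters every neighbour in the order overlapped with the next over facilities. Within each facility NK_cell_1 stood over NK_cell_2 by 1.57-, 1.53- and 1.58-fold, and T_cell_2 over T_cell_3 by 1.71-, 1.67- and 1.74-fold.

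The exception among T cells was T_cell_4, a cluster of 46, 41 and 74 cells that had 68.4, 227 and 87.2 CPM of Ms4a4b. T_cell_2 exceeded it 14.99-, 8.35- and 11.5-fold, and no range of the clusters above reached it. T_cell_4 held T cell markers at 4561 CPM, close to the 4426 and 4456 of T_cell_1 and T_cell_2, but CD8 markers at 17.5 CPM and NK markers at 10.1 CPM against 1862 and 800 CPM in T_cell_2. It also held Tmem176a and Tmem176b, relatives of the MS4A genes by their membrane fold that are otherwise high in macrophages here, at 732 ± 77.1 and 953 ± 166 CPM, and the kinase gene Blk at 253 ± 42.7 CPM. T_cell_4 was also low in Ms4a6b, as given further on. Over clusters, Ms4a4b was most like Lck, the kinase that starts T cell receptor signalling (r = 0.97), the cathepsin gene Ctsw (0.95), the cytotoxic granule gene Nkg7 (0.94), the cytokine receptor gene Il2rb (0.93) and Gm2682 (0.93).

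Thinned to 500 UMIs, 38.1 ± 10.9% of T cells and 34.9 ± 10.1% of NK cells held a UMI of Ms4a4b, and 0.596 ± 0.191% of resident macrophages did (76.0, 73.5 and 2.31% before thinning). The median T cell held 973, 3274 and 3472.5 UMIs in Aachen, Bonn and Hamburg, and the median NK cell 865, 3142.5 and 3413.5. For 100 UMIs of 8 T cell markers, T cells held 30.0, 27.4 and 17.3 UMIs of Ms4a4b and macrophages 21.8, 27.4 and 34.2. NK cells held 349, 207 and 115. The least complete T cell library detected 5 of the 8 markers, so the ratios may not rest on the same genes at each facility and are compared within facilities. The ratio in NK cells was above that in T cells at each facility. That in macrophages was below the ratio in T cells in Aachen, near it in Bonn and above it in Hamburg.

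Ms4a4c, a member known to be induced by interferon, was high in 2 myeloid clusters that did not differ beyond their spread. Monocytes had 431, 420 and 347 CPM in Aachen, Bonn and Hamburg, and Isg+_Macrophage, the cluster named for its interferon-stimulated genes, had 477, 396 and 320. The other resident macrophages were far lower. Isg+_Macrophage exceeded Macrophage_1 by 21.0-, 24.5- and 13.1-fold, Macrophage_2 by 12.4-, 7.43- and 8.77-fold and Macrophage_3 by 36.5-, 28.0- and 31.4-fold. A middle tier, which the 2 highest clusters did not overlap, held B_cell_3 at 193 and 230 CPM in Bonn and Hamburg, cDC2 at 210 ± 60.8, B_cell_1 at 176 ± 86.4 and B_cell_2 at 112 ± 65.8 CPM. Among dendritic cells, cDC2 stood over cDC1 by 9.73-, 54.3- and 16.9-fold. The lower levels in these folds rest on few UMIs. In Aachen, Bonn and Hamburg cDC1 had only 14.5, 4.75 and 13.6 CPM, and Macrophage_3 13.1, 14.1 and 10.2 CPM. The size of the folds over them is therefore uncertain. Its likest gene over clusters reached a lower correlation than that of any other member. The likest genes were Arl5c (0.77), Gm15987 (0.77), the costimulatory receptor gene Cd40 (0.76), the myosin gene Myo1g (0.72) and Ikbkb, an NF-kappaB kinase gene (0.70).

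Ms4a6b was shared between T cells and myeloid cells and had more clusters at 50% or more of its top level, 7, than any other member. T_cell_2 had 453, 541 and 449 CPM, T_cell_3 401, 548 and 470 and T_cell_1 380, 472 and 412 in Aachen, Bonn and Hamburg, and the 3 clusters overlapped. Isg+_Macrophage followed at 461, 388 and 343 CPM and monocytes at 288, 378 and 310. NK cells, which overlapped T cells for Ms4a4b, stayed below T_cell_1, T_cell_2 and T_cell_3 without overlap for Ms4a6b. T_cell_1 exceeded NK_cell_1 by 3.99-, 4.74- and 4.21-fold. T_cell_4 was again low among T cells, at 137, 199 and 91.3 CPM, 3.32-, 2.72- and 4.92-fold under T_cell_2. Its range overlapped those of NK_cell_1 (95.2 to 99.5 CPM) and NK_cell_2 (71.2 to 102 CPM). Macrophage_1, Macrophage_2 and Macrophage_3 lay between 117 and 221 CPM, and Isg+_Macrophage exceeded Macrophage_1 by 3.95-, 3.30- and 2.21-fold. The likest gene was Arl4c, which encodes a small GTPase (r = 0.87), followed at 0.72 to 0.70 by the interferon-induced genes Ifi206, Gbp7 and Igtp and by Tnfsf8, the CD30 ligand. A UMI of Ms4a6b was present in 18.8 ± 2.51% of T cells after thinning (58.8% before), in 10.9 ± 2.72% of monocytes, in 8.21 ± 1.26% of resident macrophages and in 4.04 ± 0.904% of NK cells. The lowest share was that of B cells, 1.46 ± 0.677%.

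Ms4a6c, a gene of monocytes and their relatives, was highest in monocytes of all 9 libraries. The monocyte cluster had 683, 1007 and 810 CPM in Aachen, Bonn and Hamburg, Isg+_Macrophage 367, 556 and 690, and cDC2 360, 520 and 496. Within facilities monocytes exceeded cDC2 by 1.90-, 1.94- and 1.63-fold, and cDC2 exceeded cDC1 by 5.89-, 9.12- and 7.32-fold. Resident macrophages differed between facilities. In Macrophage_2 the level was 182 CPM in Aachen, 275 in Bonn and 614 in Hamburg, while in Macrophage_1 it was 140, 150 and 201. In the order of the 23 clusters every neighbour overlapped with the next over facilities. Neutrophils had 164 and 270 CPM in Bonn and Hamburg and none in the 25 Aachen cells. The likest genes were Ifitm3, an antiviral membrane protein gene (0.97), the lysozyme gene Lyz2 (0.90), Cd300c2 (0.90), the galectin gene Lgals3 (0.90) and the chemokine gene Ccl9 (0.90). After thinning, 29.2 ± 5.65% of monocytes (71.0% before), 15.1 ± 2.03% of cDC2 and 10.98 ± 3.35% of resident macrophages held a UMI of Ms4a6c, against 0.750 ± 0.512% of B cells. The median monocyte held 1709, 5342.5 and 4235 UMIs in Aachen, Bonn and Hamburg, and the median cDC2 1705, 8239 and 4959.

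Ms4a6d, for which the fewest UMIs were found after Ms4a4a (1576 in all), was likewise a myeloid gene, with monocytes the highest class in 6 of 9 libraries. Monocytes held 102, 98.0 and 99.1 CPM in Aachen, Bonn and Hamburg. Isg+_Macrophage had 54.7, 71.3 and 250 CPM and Macrophage_2 50.8, 52.4 and 199, so the cluster order depended on Hamburg, where both stood above monocytes, while in Aachen and Bonn both stood below. Macrophage_1 had 28.2, 29.3 and 54.2 CPM. Its likest genes included 2 antiviral oligoadenylate synthetase genes, Oas1a (0.94) and Oasl2 (0.92), with Smpdl3b (0.91), Klra2 (0.90) and Fcgr1, the high-affinity IgG receptor gene (0.90). Over the 23 clusters, Ms4a6c and Ms4a6d correlated at r = 0.86, Ms4a6d and Ms4a7 at 0.82 and Ms4a6c and Ms4a7 at 0.70, in contrast with 0.32 for Ms4a6b and Ms4a6c and -0.0685 for Ms4a4b and Ms4a4c. These points share libraries and depth, and the values are a description.

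Ms4a7, a gene used as a macrophage marker, was highest in resident macrophages of all 9 libraries. Macrophage_2 led with 827, 862 and 741 CPM in Aachen, Bonn and Hamburg, above every other cluster without overlap. Macrophage_1 had 461, 525 and 488 CPM, Macrophage_3 375, 596 and 462, Isg+_Macrophage 352, 639 and 363 and Malat+_Macrophage 401, 604 and 309, and these 4 overlapped. Macrophage_2 exceeded Macrophage_1 by 1.79-, 1.64- and 1.52-fold. Monocytes were lower and varied widely, at 156, 65.3 and 23.7 CPM, with Macrophage_1 above them by 2.96-, 8.04- and 20.6-fold. The likest genes were C1qb (0.97) and C1qc (0.96), which encode complement C1q chains, the efferocytosis receptor gene Axl (0.97), Adgre1, which encodes F4/80 (0.96), and the integrin gene Itga9 (0.96).

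After thinning, 24.1 ± 4.35% of resident macrophages held a UMI of Ms4a7 (60.2% before) against 0.333 ± 0.400% of T cells. For 100 UMIs of 12 macrophage markers, macrophages held 2.23, 2.57 and 2.51 UMIs of Ms4a7 in Aachen, Bonn and Hamburg, and T cells held 2.23, 2.55 and 1.74. In the monocytes the ratio was 4.24, 1.48 and 0.944. T cells thus held the gene close to the ratio of macrophages in Aachen and Bonn, and below it in Hamburg.

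Ms4a4a, whose product is known to associate with the beta-glucan receptor Dectin-1 on macrophages, was a monocyte gene in these kidneys. Monocytes had 233 CPM in Bonn and 228 in Hamburg, and neutrophils, next in the order, had 17.6 and 49.96 without overlap. Macrophage_2 had 2.88 and 25.6 CPM. Monocytes were highest in all 6 libraries of these facilities. Thinned to 500 UMIs, 9.19 ± 2.56% of monocytes held a UMI (n = 2; 45.3% before) against 0.405 ± 0.153% of resident macrophages. The likest genes were Arhgef37 (0.89), the monocyte and macrophage gene Chil3 (0.89), Nxpe4 (0.89), Apoc2 (0.88) and the neutrophil gene Cd177 (0.88).

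**Figure D3:**
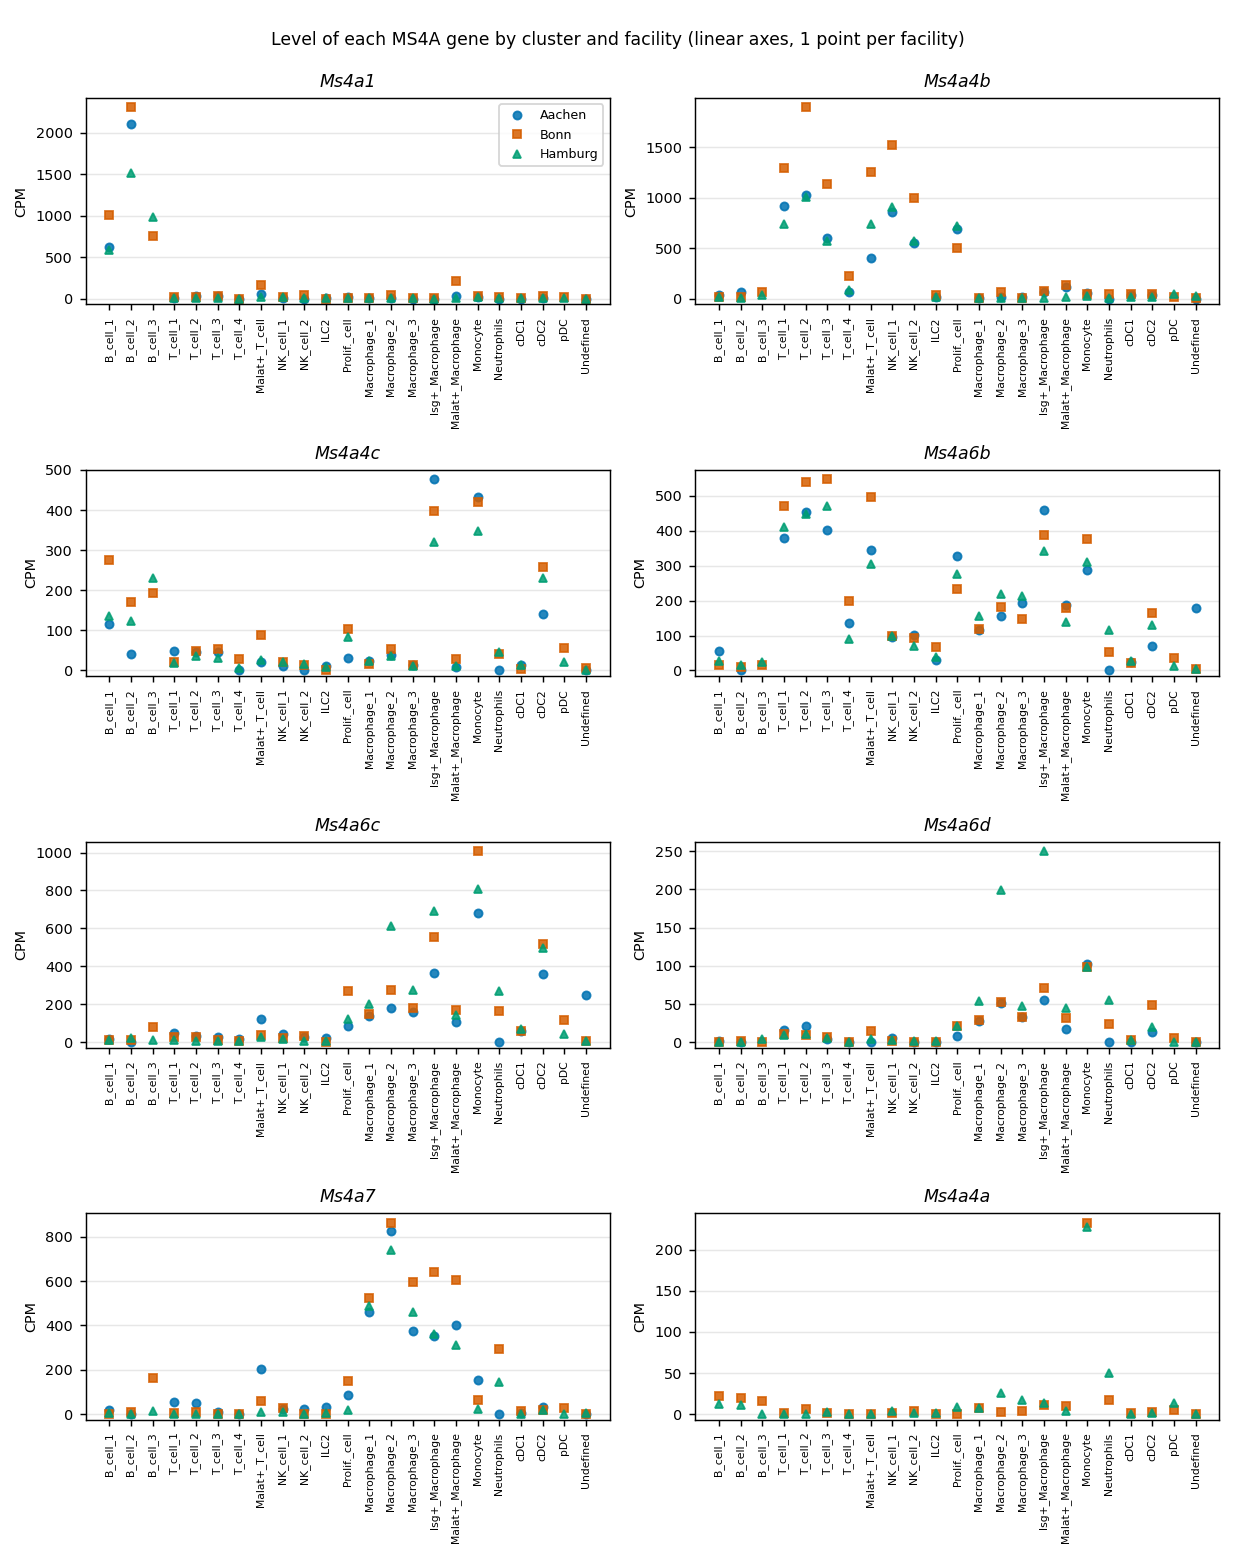
CPM of each gene (y axes, linear, a panel per gene) in the 23 clusters (x axes), with 1 point per facility. Facilities lie close for Ms4a4a and for Ms4a7 in Macrophage_2, and far apart for Ms4a6c and Ms4a6d in Macrophage_2, where Hamburg stands above Aachen and Bonn.

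The other symbols of the family added little. Ms4a14 was found with 440 UMIs, led by Malat+_Macrophage, and Ms4a8a with 159 UMIs, of which 89.97% were in monocytes. Ms4a2, a subunit gene of the high-affinity IgE receptor, had 35.4 UMIs, all from Hamburg, and Ms4a4d, Ms4a15 and Ms4a3 had 22 or fewer each. Ms4a5, Ms4a10, Ms4a12, Ms4a13 and Ms4a18 had none. Gm8369, whose window is in part a near copy of that of Ms4a4c, had 7505 UMIs, 53.2% of them in B_cell_1. It had 768, 383 and 489 CPM there in Aachen, Bonn and Hamburg. It was lower in T_cell_3, at 315, 229 and 329 CPM. Of the 3 genes with similar windows, Ms4a4b was highest in T cells, Ms4a4c in monocytes and Gm8369 in B cells. Whether the RNA counted here came from the starts used for these windows was not tested.

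The levels of the members were then compared between compartments. Counts were summed per library in 6 classes: resident macrophages (Macrophage_1, Macrophage_2, Macrophage_3 and Isg+_Macrophage), monocytes, cDC2, T cells (T_cell_1 to T_cell_4), NK cells and B cells. Medulla, the mean of OM and IM, was compared with cortex by edgeR's quasi-likelihood test with the facility as a block, Benjamini-Hochberg adjusted over all genes tested at a threshold of 0.05. No MS4A member passed in any class. Of the genes tested in resident macrophages 1.23% were called (101 of 8228), of those in monocytes 0.312% (17 of 5455), in cDC2 0.293% (13 of 4430), in T cells 0.0117% (1 of 8522), in NK cells 0% (0 of 2908) and in B cells 0.0353% (3 of 8509). The number of members with enough counts to be tested was 6, 8, 4, 7, 2 and 7 in that order, and 0 called is near this background for so few genes. At an unadjusted p under 0.05 there were 3 members in macrophages (Ms4a4b, Ms4a4c and Ms4a6c) and none in the other classes, and DESeq2 called 0 members in each class. Over all genes tested, 826 had an unadjusted p under 0.05 in macrophages, 210 in monocytes, 225 in cDC2, 503 in T cells, 132 in NK cells and 276 in B cells. In NK cells DESeq2 called 0 genes.

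The same edgeR fits, read for OM or IM against cortex and for OM against IM, also called 0 members in each class. For OM against cortex the background was 0.826% in macrophages, 0.238% in monocytes, 0.113% in cDC2, 0.0235% in T cells, 0% in NK cells and 0.047% in B cells. For IM against cortex it was 0.0851, 0.202, 0.158, 0.0235, 0 and 0.0353%, and for OM against IM 0, 0.0917, 0.135, 0, 0 and 0.0235%. Unadjusted p-values under 0.05 were found for 3 members in macrophages and 1 in B cells in the first of these, for 1 each in macrophages, monocytes and T cells and 2 in cDC2 in the second, and for 1, Ms4a4b in B cells, in the third. Over all genes tested there were 850 such genes in macrophages and 362 in B cells in the first, 583 in macrophages, 183 in monocytes, 360 in T cells and 185 in cDC2 in the second, and 326 in B cells in the third.

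Several main genes had estimates near 0 with small errors. In B cells Ms4a1 differed between medulla and cortex by -0.02 ± 0.09 (log2 fold change ± SE), with 848, 1165 and 630 CPM in cortex of Aachen, Bonn and Hamburg, 662, 1122 and 733 in OM and 742, 1097 and 714 in IM. Cortex was the highest in Aachen and Bonn and the lowest in Hamburg. In T cells Ms4a4b differed by -0.07 ± 0.10 and Ms4a6b by -0.06 ± 0.10, in NK cells Ms4a4b by 0.05 ± 0.15, and in monocytes Ms4a6c by -0.04 ± 0.15 and Ms4a4c by -0.10 ± 0.16.

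In resident macrophages all 6 tested members had estimates below 0, with a median of -0.34 against 0.01 over all genes tested. Without the Bonn facility, those of Ms4a4b and Ms4a4c were 0.56 and 0.046. Ms4a7 had 768, 849 and 547 CPM in cortex, 390, 780 and 573 in OM and 709, 535 and 444 in IM of Aachen, Bonn and Hamburg, with overlapping compartments and a log2 fold change of -0.33 ± 0.17 (adjusted p = 0.55 in edgeR). Ms4a6c differed by -0.29 ± 0.14 (adjusted p = 0.48), Ms4a6d by -0.35 ± 0.17 (0.52) and Ms4a6b by -0.13 ± 0.13 (0.83). Markers of kidney tubule moved with the same comparison in these macrophages, with 24.0 to 31.7 CPM for the list of 5 in the cortex libraries, 269 to 449 in OM and 63.4 to 777 in IM, and 3 to 5 of the 5 detected in each library. Their part in the members' values was not tested. The make-up of the class differed between libraries, too. Macrophage_2, the cluster with the most Ms4a7, made up 35.5, 83.3 and 32.8% of the macrophages of the cortex in Aachen, Bonn and Hamburg, 18.6, 32.1 and 18.6% of those of the OM and 60.6, 10.4 and 16.6% of those of the IM. Macrophage_3 made up 0, 7.05 and 0% in cortex, 44.7, 42.9 and 22.98% in OM and 1.17, 43.1 and 15.4% in IM. The share of Macrophage_2 was thus higher in cortex than in OM at each facility, while that in the IM of Aachen exceeded its cortex. In Macrophage_1 and Macrophage_2 alone the estimate for Ms4a7 was -0.28 (adjusted p = 0.78). The part of Isg+_Macrophage and of the balance between the 2 was not tested.

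Ms4a4b had the largest estimate among the members, -1.55 ± 0.51 in resident macrophages (adjusted p = 0.21 in edgeR), and Ms4a4c followed at -0.72 ± 0.31 (adjusted p = 0.42). The macrophages of the Bonn cortex library held 67.2 CPM of Ms4a4b, against 17.6 and 7.21 in the Bonn OM and IM, 6.60, 11.1 and 32.4 in cortex, OM and IM of Aachen and 5.94, 4.16 and 1.45 in those of Hamburg. Aachen went the other way from Bonn and Hamburg. The same Bonn library held the most UMIs of T cell markers in its macrophages, 243 CPM for the list of 8 with all 8 detected, where the other libraries held 9.99 to 130 CPM, and of the 8 B cell markers, 722 CPM against 68.6 to 246. It also held the most Ms4a1, 45.4 CPM against 0 to 16.3. Without this library the estimates for Ms4a4b and Ms4a4c were 0.53 and 0.03. Without the Aachen IM library, whose macrophages had the second highest Ms4a4b, the estimate for Ms4a4b was -1.999 and passed the test (adjusted p = 0.0012 in edgeR). The sign of both estimates in macrophages therefore changed when the Bonn cortex library alone was left out. Within facilities, medulla minus cortex in log2 CPM was 1.43, -2.38 and -1.14 for Ms4a4b in Aachen, Bonn and Hamburg. For Ms4a4c it was -0.50, -1.52 and 0.54. Leaving out macrophages with at least 2 UMIs of the lymphocyte markers, 205 of 1267 in cortex, 107 of 2603 in OM and 128 of 1497 in IM, left too few UMIs of Ms4a4b to test it.

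**Figure D4:**
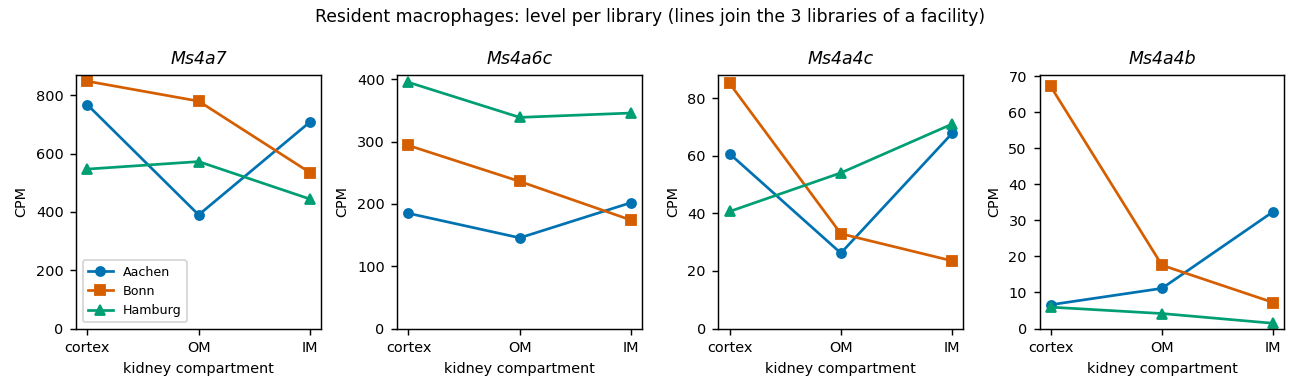
CPM of Ms4a7, Ms4a6c, Ms4a4c and Ms4a4b in resident macrophages (y axes, linear, from 0) in the 3 compartments (x axes), with 1 point per library and lines joining the libraries of a facility. The 67.2 CPM of Ms4a4b in the Bonn cortex library stand apart from the 1.45 to 32.4 CPM of the other libraries.

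In cDC2 all 4 tested members had estimates below 0, with a median of -0.35. Ms4a4c had 219, 306 and 260 CPM in cortex, 121, 273 and 237 in OM and 114, 214 and 198 in IM of Aachen, Bonn and Hamburg, so that cortex was highest and IM lowest at each facility, with a log2 fold change of -0.35 ± 0.17 for the medulla (adjusted p = 0.96 in edgeR) and -0.49 ± 0.20 for the IM (adjusted p = 1). Ms4a6c, at 439, 605 and 486 CPM in cortex, 362, 495 and 529 in OM and 303, 458 and 441 in IM, differed by -0.17 ± 0.15. In T cells, Ms4a4c pointed the other way in the IM, at 0.48 ± 0.18 (adjusted p = 1). In monocytes Ms4a4a had 267 and 243 CPM in cortex, 208 and 233 in OM and 162 and 207 in IM of Bonn and Hamburg, in the order cortex, OM and IM at both, with -0.49 ± 0.22 for the IM (adjusted p = 1). That fit includes the Aachen libraries, where the gene is at 0. None of these passed the test.

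**Figure D5:**
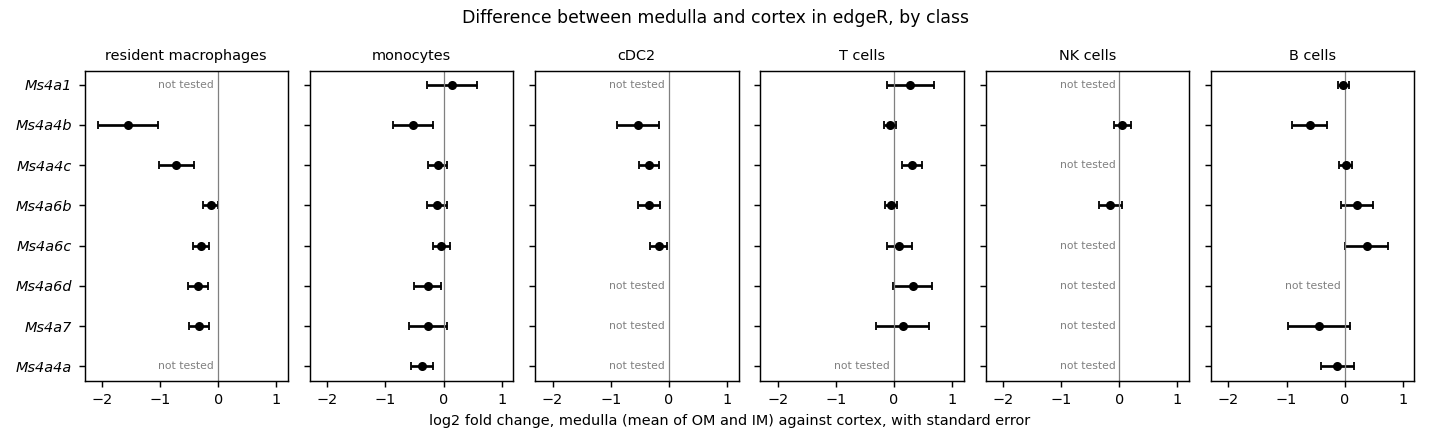
Log2 fold change of each member in medulla (mean of OM and IM) against cortex from edgeR (x axes), with bars of 1 SE, in 6 classes. No value passed the threshold, the bars of Ms4a1 in B cells and Ms4a4b and Ms4a6b in T cells are the shortest, and genes with too few counts are marked as not tested.

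An interaction term in edgeR asked whether the difference between medulla and cortex was itself different between macrophages and each of T cells, B cells and cDC2. It called 0 members in each of the 3 fits, where the background was 0% (0 of 9652), 0.134% (13 of 9709) and 0.0233% (2 of 8566) of the genes. At an unadjusted p under 0.05 there were 3 members with T cells, 1 with B cells and 1 with cDC2, among 688, 518 and 444 genes in all, and no other tool was run. The largest differences were those of lymphocyte genes. The medullary effect of Ms4a4b was 1.43 ± 0.52 higher in T cells than in macrophages (adjusted p = 0.49), and that of Ms4a1 was 1.62 ± 0.72 higher in T cells (adjusted p = 0.65), 1.34 ± 0.48 higher in B cells (adjusted p = 0.68) and 2.26 ± 0.79 higher in cDC2 (adjusted p = 0.65). Without Bonn, whose cortex macrophages held the most of both genes, these values were -0.64, -0.53, -2.20 and 3.92, and none was called. The values for Ms4a1 rest on few UMIs outside B cells. Its median over libraries was 3.34 CPM in macrophages, 15.1 in cDC2 and 13.7 in T cells. In the fits within macrophages and within cDC2 it had too few counts to be tested. For Ms4a7 the difference was 0.48 ± 0.50 in T cells.

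Of 18 receptor and signalling genes chosen around the MS4A proteins, which include Fc receptor chains, GITR and the B cell receptor complex, 17 were in the table and 12 were tested in resident macrophages, where 2 passed against 1.23% of all genes. Trem2, a lipid-sensing receptor, rose by 1.496 ± 0.20 in the medulla (adjusted p = 0.0060 in edgeR) and Cd79b, a chain of the B cell receptor, fell by 0.79 ± 0.16 (adjusted p = 0.023). Cd79b is on the list of B cell markers that was highest in the Bonn cortex macrophages, and the part of that library in its change was not tested. For the rise of Trem2, the part of single libraries and of the make-up of the class, such as its share of Macrophage_3, was not tested. In the other 5 classes edgeR called none of the 8 to 15 genes tested, where at most 0.312% of all genes were called, with unadjusted p-values under 0.05 for 1 in monocytes, 2 in T cells and 1 in NK cells. Over all genes tested, 210, 503 and 132 had one in the same classes.

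Of 12 interferon response genes, 11 were tested in resident macrophages and 11 in monocytes. In each 2 fell, where 1.23 and 0.312% of all genes were called. In macrophages these were Ifit2, an inhibitor of viral translation, by 1.21 ± 0.18, and Rsad2, which encodes viperin, by 0.98 ± 0.19 (adjusted p = 0.010 and 0.020 in edgeR). The part of single libraries in these falls was not tested. In monocytes Isg15, a ubiquitin-like modifier, fell by 1.15 ± 0.20 and Irf7, a regulator of interferon genes, by 0.71 ± 0.18 (adjusted p = 4.1e-05 and 0.038 in edgeR). In cDC2 1 of 6 fell, Irf7 by 1.30 ± 0.25 (adjusted p = 0.021 in edgeR), where 0.293% of all genes were called. None rose in any class, and edgeR called none of the 9, 3 and 4 tested in T, NK and B cells, where 1, 2 and 0 had an unadjusted p under 0.05. Over all genes tested, 503, 132 and 276 had one in the same classes, and at most 0.0353% were called. The list's median log2 fold change was -0.52 in macrophages, -0.71 in monocytes, -0.37 in cDC2, -0.43 in T cells, -0.48 in NK cells and -0.13 in B cells, where that of all genes tested lay between -0.01 and 0.01. Ms4a4c, high in the cluster named for these genes, had -0.72 ± 0.31, -0.10 ± 0.16 and -0.35 ± 0.17 in macrophages, monocytes and cDC2 and passed in none. Its estimate in macrophages changed sign without the Bonn cortex library, as given above.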

How the data were processed

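Immune cells sorted for CD45 from dissected cortex, OM and IM were profiled by 10x Genomics droplet sequencing. Cell Ranger, Seurat and the mm10 build are named in the submitters' processing notes. The authors deposited 1 table with a cluster, compartment and facility label for each cell and its UMI values per gene. These are estimated counts, as deposited by the authors, since those of Hamburg are not whole numbers, and the step that made them so is not given in the sources used here. Doublets were not called here, and all deposited cells were kept.

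Counts were summed per class, compartment and facility (at least 10 cells), rounded to whole numbers and tested with edgeR 4.0.16 in R 4.3.3 (quasi-likelihood, filterByExpr, TMM, facility as block, Benjamini-Hochberg over all genes tested, 0.05), with DESeq2 1.42.0 as an alternative. Errors of fold changes are standard errors. Libraries of the same facility deviated together, with correlations from 0.498 to 0.921 over the 6 classes, and the pairing comes from the facility column. Shares were taken from cells with at least 500 UMIs thinned to 500 UMIs, which left out 810 Aachen, 0 Bonn and 4 Hamburg cells. Intervals and shares cover these libraries only. Likeness was Pearson's r of log2(CPM + 10), averaged over facilities, over 23 clusters among 7022 genes with at least 50 CPM in 1 cluster or more. The values share libraries and depth. Promoters were aligned with Biopython 1.88, and other steps used Python 3.11.15, numpy 2.4.6, pandas 2.3.3 and scipy 1.17.1. The edgeR fits were tried on simulated counts that, unlike these libraries, had no facility effect, and no conclusion here rests on that trial.

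All 8 members were named whether or not they passed, with the 5 genes most like each, the other Ms4a symbols, Tmem176a and Tmem176b by their levels, and the 2 lists of receptor and interferon genes by counts and examples. Blk in T_cell_4 was chosen after its values were seen. A gene that this rule names is not reported here. The members and lists were chosen with earlier results of these data known.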

Additional observations from a re-analysis of the deposited data

How the results depend on the processing

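Depth limits the rarer members, since Ms4a6d had 1576 UMIs in all, and 2 to 8 members were tested in a class. Ms4a4a was at 0 in Aachen for a cause that was not tested. The count of members called was 0 in monocytes, cDC2, T cells, NK cells and B cells under every alternative that was run. In resident macrophages it was 0 without the replicate block, with RLE size factors, with DESeq2, after thinning, in Macrophage_1 and Macrophage_2 alone and without macrophages holding lymphocyte UMIs. It was 3 with no filter on low counts (Ms4a1 at -1.33, Ms4a4b at -1.55 and Ms4a4c at -0.72 on the log2 scale), and ranged from 0 to 2 when a facility or library was left out. The 2 came without Aachen (Ms4a1 at -1.81 and Ms4a4b at -2.38), and 1 (Ms4a4b) without the Aachen IM library. The Bonn cortex and Aachen IM libraries were left out as alternatives chosen after seeing the data. The interaction called 5 with no filter and from 0 to 1 with a facility left out, the 1 being Ms4a4b in T cells without Aachen. How many of all genes these alternative interaction fits called was not recorded, so their member counts have no background beside them. The calls over all genes of the macrophages follow as counts, without shares.

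Over all genes of the macrophages, 101 calls became 0 without the replicate block, 47 with DESeq2, 382 with no filter, 27 after thinning, 36 in Macrophage_1 and Macrophage_2 alone, 237 without Aachen, 54 without Bonn, 6 without Hamburg, 14 without the Bonn cortex library and 262 without the Aachen IM library. No member was called with or without the pairing by facility. Without it no gene of the macrophages was called at all, so that setting could not have called a member there.

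Of 332 alternative values for 34 pairs of member and class, 39 had the other sign, and none of those passed the test. Without the replicate block these were Ms4a1 in monocytes (-0.038) and Ms4a7 in B cells (0.54). After thinning they were Ms4a4c in monocytes (0.054) and B cells (-0.14), Ms4a6c in cDC2 (0.067), and Ms4a4b (0.039) and Ms4a6b (0.086) in T cells. With no filter they were Ms4a4b in NK cells (-0.024) and Ms4a4c in B cells (-0.00032). In B_cell_1 alone they were Ms4a1 (0.067), Ms4a4c (-0.020) and Ms4a7 (0.068).

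With a facility or library left out, the ranges that crossed 0 were as follows. In resident macrophages they were -2.38 to 0.56 for Ms4a4b and -1.21 to 0.046 for Ms4a4c. In monocytes they were -0.63 to 0.0097 for Ms4a4b, -0.11 to 0.030 for Ms4a6c, -0.62 to 0.19 for Ms4a6d and -0.79 to 1.06 for Ms4a7. In cDC2 the range was -0.69 to 0.19 for Ms4a4b, and in NK cells -0.046 to 0.10 for Ms4a4b. In T cells they were -0.18 to 1.80 for Ms4a1, -0.18 to 0.0014 for Ms4a6b, -0.0080 to 0.23 for Ms4a6c and -0.47 to 0.63 for Ms4a7. In B cells they were -0.13 to 0.040 for Ms4a1, -0.21 to 0.15 for Ms4a4a, -0.073 to 0.14 for Ms4a4c, -0.034 to 0.75 for Ms4a6b and -0.63 to 0.38 for Ms4a7. The cause of these changes was not tested.

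With log2(CPM + 1), 4 of the 5 likest genes were shared for Ms4a1 and Ms4a4b, 5 for Ms4a4c and Ms4a6d, 3 for Ms4a6b and 2 for Ms4a4a, Ms4a6c and Ms4a7.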
